A study of Mus musculus with 4 samples.

Results

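Igf1, the IGF and insulin receptor genes Igf1r and Insr, and the binding protein genes Igfbp2 to Igfbp7 were described in lymphatic endothelial cells of mouse embryos at day 14.5. These 9 genes were chosen by symbol from the 23337 symbols of the deposited count tables, and all 9 were found. The study made 1 library for each of 4 groups: homozygous mutant cells after culture, wild type cells after culture, mutant cells before culture and wild type cells before culture. The mutant is a deletion, and the series is titled for a GATA2-bound enhancer; in the published study that enhancer belongs to Prox1, the gene of the homeobox factor that specifies lymphatic endothelium. Per the labels' protocols, cells of a whole litter per genotype were pooled and sorted from the front dorsal part of the embryos as CD45-negative, LYVE1-positive and VECAD-positive. Cells before culture went straight into Trizol, and cells after culture were the rest of the same sort, kept for 7 days on OP9 stromal feeder cells with FLT3L, IL3 and SCF at 100 ng/ml each and sorted again for LYVE1 and VECAD. Pooled litters and 1 library per group leave no replicate error, so no p-value was computed and each comparison is between libraries.

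IGF1 is a secreted growth factor that signals through IGF1R, a receptor tyrosine kinase closely related to the insulin receptor; the related ligand IGF2 also binds both receptors. The IGFBPs are secreted proteins that hold IGFs in tissue fluid and can either block or prolong their action, while IGFBP7 binds IGFs weakly and is abundant around blood vessels. Endothelial cells both respond to IGFs and secrete several of the binding proteins.

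Gene counts ranged from 1694669 in the cultured wild type library to 7943587 in the mutant library before culture. Levels are CPM, the counts of a gene relative to the library size scaled with TMM factors, with exact Poisson 95% intervals, and levels of different genes are compared only per kb of exon. A fold is the ratio of 2 CPM levels, with its exact 95% interval; all intervals cover counting error only. To be called, a gene needed 20 counts in 1 of the 2 libraries and a fold whose interval did not reach back inside 2-fold in either direction; genes with that many counts are termed measured. Olfactory and vomeronasal receptor genes, normally silent outside sensory neurons, held 0.391 to 1.33 CPM per kb. This receptor gene rate is used as the background level. It was 0.482 and 0.391 in mutant and wild type libraries after culture, against 0.906 and 1.33 before. At that rate, background would make up 4.03% and 3.12% of gene counts after culture, against 10.3% and 16.4% before. Every culture fold thus compares libraries that differ in background. Markers of the sorted cells were present: 9 pan-endothelial genes summed to 10805 and 11896 CPM in mutant and wild type libraries after culture, and to 4104 and 3872 CPM before culture. Of 7 lymphatic markers, Pdpn, which was at 0 counts in the cultured wild type library, Prox1, Reln and Mmrn1 were called lower after culture in both genotypes. Lyve1 was called higher in both and Flt4 in wild type cells, and the list summed after culture to 0.881 of the level before it in mutant and 0.990 in wild type cells. The 10 stromal markers summed to 1037 and 1224 CPM in mutant and wild type libraries after culture, and to 5314 and 3324 CPM before culture, with Lum alone at 0 and only in the cultured wild type library. In such bulk libraries, fewer cells of a type and less RNA per cell cannot be told apart.

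All 9 genes lay above the receptor gene rate in every library, and their order differed between cultured and freshly sorted cells. After culture Igfbp5 came first, at 861 and 1130 CPM per kb in mutant and wild type cells, and ranked 8 and 7 among the 22857 genes with an exon length. Before culture Igfbp4 came first, at 196 and 161 CPM per kb in mutant and wild type cells. In cultured mutant cells Igfbp5 and Igfbp4 were followed by Igfbp3 and Igfbp7, whose intervals overlapped, then by Igf1, by Insr and Igf1r, which also overlapped, and by Igfbp2 and Igfbp6, which overlapped too. Cultured wild type cells had the same order except that Igfbp7 stood just above Igfbp3 and Igf1r just above Insr, again with overlapping intervals. In mutant cells before culture the order after Igfbp4 was Igfbp5, Igf1, Igfbp3, Igfbp2, Igfbp7, Igf1r, Insr and Igfbp6, with overlap between Igfbp2 and Igfbp7, between Igfbp7 and Igf1r, and between Insr and Igfbp6. In wild type cells before culture it was Igfbp5, Igf1, Igfbp3, Igfbp7, Igf1r, Igfbp2, Igfbp6 and Insr, and the steps from Igf1 to Igfbp3 and from Igfbp7 to Igf1r were the only ones below Igfbp5 without overlap.

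**Figure D1:**
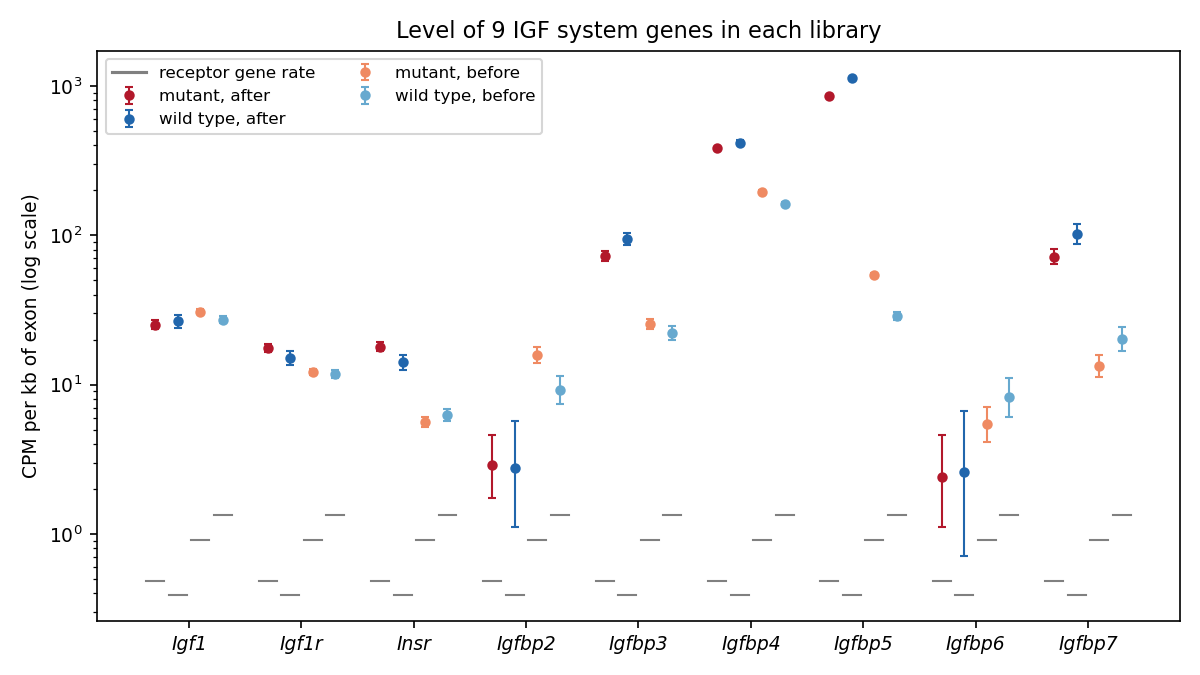
Level of each gene in the 4 libraries, in CPM per kb of exon on a log axis; points are single libraries, bars are exact Poisson 95% intervals, and grey lines give the receptor gene rate of each library. Igfbp5 is at 861 and 1130 in cultured mutant and wild type cells, against 54.2 and 28.8 before culture, whereas Igf1 stays between 25.2 and 30.8 in all 4.

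The comparison of cells after culture with cells before it was made within each genotype. Of the 9 genes, 4 were called higher and 1 lower in mutant cells, where 5.19% and 3.62% of all 18807 measured genes were called higher and lower. In wild type cells 4 were called higher and none lower, against 8.17% and 5.77% of 17154 measured genes. The median log2 fold of the 9 genes, with a prior count of 2, was 0.96 in mutant cells and 1.16 in wild type cells, beside -0.09 and -0.05 over all measured genes. The 9 pan-endothelial markers were higher after culture too, by 2.63-fold in mutant cells and 3.07-fold in wild type cells as a sum, so the culture folds of the 9 genes are also given relative to that sum. With the sum of those markers as library size all culture folds shifted by -1.40 in mutant and by -1.62 in wild type cells on the log2 scale.

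Igf1, the ligand, was not called in either genotype. It had 833 and 361 counts in mutant and wild type libraries after culture, and 2807 and 1346 before culture. These are levels of 249 CPM (232 to 267) and 263 CPM (236 to 291) after culture, and of 305 CPM (294 to 316) and 270 CPM (256 to 285) before it. The 4 levels lie close together, with a culture fold of 0.818 (0.756 to 0.884) in mutant cells and 0.972 (0.863 to 1.09) in wild type cells. Relative to the pan-endothelial sum Igf1 was called lower in both, with log2 folds of -1.69 and -1.66. On chromosome 10 of mm10 Igf1 lies on the plus strand from 87858265 to 87937042, with 9.90 kb of merged exon. Igf2, which encodes the other IGF ligand and is not among the 9, exceeded it per kb in each library, by 21.8-fold and 33.3-fold in mutant and wild type cells after culture and by 22.4-fold and 25.2-fold before culture.

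Insr, the insulin receptor gene, was called higher after culture in mutant cells. It had 823 and 266 counts in mutant and wild type libraries after culture, and 714 and 429 before culture. The levels were 246 CPM (230 to 264) and 194 CPM (171 to 218) after culture, and 77.5 CPM (71.9 to 83.4) and 86.1 CPM (78.1 to 94.6) before it, so the cultured libraries stood apart from the others. The culture fold was 3.18 (2.87 to 3.52) in mutant cells. In wild type cells it was 2.25 (1.92 to 2.63), short of the call, although it was called with background subtracted, at 2.40 (2.02 to 2.85), and with DESeq2 size factors, at a log2 fold of 1.24. Relative to the pan-endothelial sum the log2 folds of Insr were 0.27 and -0.45 in mutant and wild type cells, with no call.

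Igf1r, the main signalling receptor for IGF1, was not called. Its levels were 295 CPM (277 to 314) and 253 CPM (227 to 281) in mutant and wild type libraries after culture, on 987 and 348 counts, and 204 CPM (194 to 213) and 197 CPM (185 to 210) before culture, on 1875 and 982 counts. The culture fold was 1.45 (1.34 to 1.57) in mutant cells and 1.28 (1.13 to 1.45) in wild type cells. Scaled to total gene counts the wild type fold turned to -0.26 on the log2 scale, and relative to the pan-endothelial sum the log2 folds were -0.86 in mutant cells and -1.26 in wild type cells, where it was called lower.

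The balance of the receptor genes within a library does not depend on scaling between libraries. Igf1r over Insr, per kb of exon, was 0.982 (0.894 to 1.08) and 1.07 (0.910 to 1.26) in mutant and wild type cells after culture, against 2.15 (1.97 to 2.35) and 1.87 (1.67 to 2.10) before culture. Igf1r and Insr were thus about level in cultured cells, whereas Igf1r exceeded Insr in freshly sorted cells of both genotypes, and the intervals after and before culture did not overlap. With background subtracted the ratios were 0.981 and 1.07 after culture, against 2.37 and 2.11 before. Igf1r lies on chromosome 7 from 67952827 to 68233668 on the plus strand and Insr on chromosome 8 from 3122061 to 3279617 on the minus strand, with 16.8 and 13.8 kb of merged exon.

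**Figure D2:**
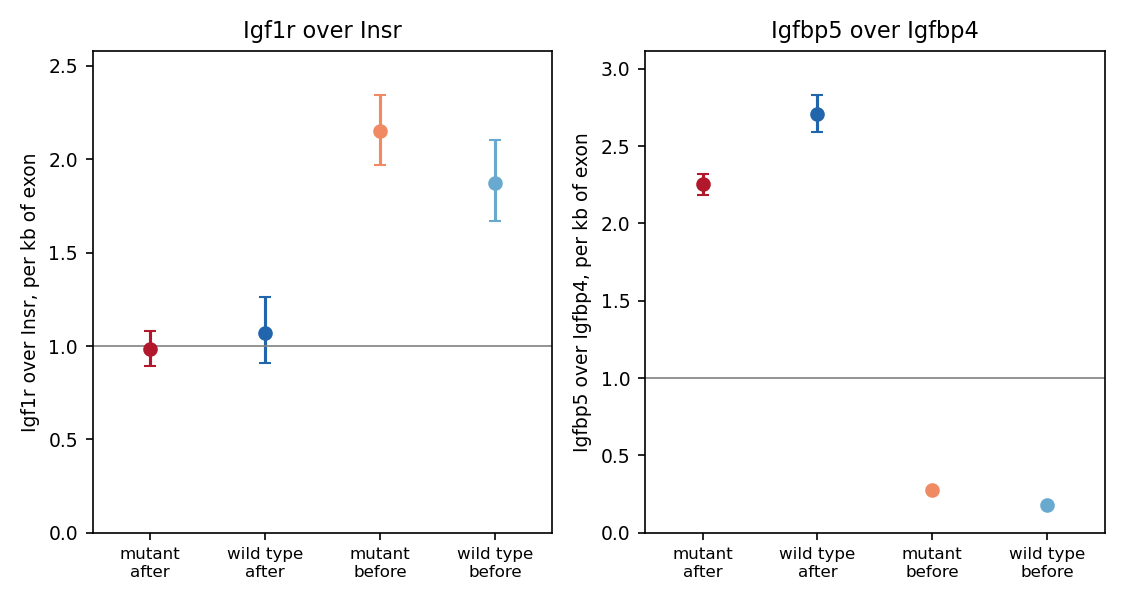
Ratios of 2 genes within each library, per kb of exon, with exact 95% intervals; left, Igf1r over Insr, and right, Igfbp5 over Igfbp4, with grey lines at equal levels. Igf1r over Insr is 0.982 and 1.07 in cultured mutant and wild type cells, against 2.15 and 1.87 before culture, and Igfbp5 over Igfbp4 is 2.25 and 2.71 after culture, against 0.277 and 0.179 before.

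Igfbp5, a binding protein that also attaches to extracellular matrix, showed the largest culture fold of the 9 genes in both genotypes. It had 17295 and 9333 counts in mutant and wild type libraries after culture, and 3000 and 861 before culture. The levels were 5172 CPM (5095 to 5250) and 6790 CPM (6653 to 6929) after culture, and 326 CPM (314 to 337) and 173 CPM (161 to 185) before it. Igfbp5 rose 15.9-fold (15.3 to 16.5) in mutant cells and 39.3-fold (36.6 to 42.2) in wild type cells. It was the 1 binding protein gene still called higher relative to the pan-endothelial sum, with log2 folds of 2.59 and 3.68. Stromal markers moved the other way, summing after culture to 0.195 of the level before it in mutant cells and 0.368 in wild type cells. Smooth muscle and pericyte markers, 6 genes, summed to 227 and 208 CPM in mutant and wild type cells after culture, against 121 and 108 CPM before, with no marker at 0. That list was split: Acta2 and Rgs5 were called higher and Cspg4 lower in both genotypes. Its log2 folds were above 0 for 4 and below 0 for 2 genes in mutant cells, and for 3 and 3 in wild type cells. Acta2 alone held 115 and 119 CPM of the cultured sums. Adipocyte markers, also 6 genes with none at 0, summed to 373 and 544 CPM after culture, against 56.2 and 65.2 CPM before. Of these, Fabp4 held 335 and 394 CPM of the cultured sums. In mutant cells Fabp4 and Plin1 were called higher, and 3 of the 6 had log2 folds below 0. In wild type cells 4 of the 5 measured, Adipoq, Fabp4, Plin1 and Car3, were called higher, with a median log2 fold of 3.23 over the list. The part of these markers in the Igfbp5 values was not tested. OP9 feeder cells were present only in culture, and any part of their RNA in the cultured counts was not tested either.

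Igfbp2, an IGF binding protein abundant in embryonic tissues, was lower after culture. It had 18 and 7 counts in mutant and wild type libraries after culture, and 268 and 85 before culture, which gives 5.38 CPM (3.19 to 8.51) and 5.09 CPM (2.05 to 10.5) against 29.1 CPM (25.7 to 32.8) and 17.1 CPM (13.6 to 21.1). Both cultured libraries lay below both libraries before culture. In mutant cells Igfbp2 fell 5.40-fold (3.35 to 9.26); in wild type cells it was 3.35-fold lower (1.56 to 8.58), which was called only with total gene counts or the pan-endothelial sum as scale. Relative to that sum the log2 folds were -3.83 in mutant and -3.36 in wild type cells. The stromal sum given above was lower after culture as well. So were the cartilage sum, at 0.241 and 0.343 of the level before culture in mutant and wild type cells, and the skeletal muscle sum, at 0.264 and 0.363. The smooth muscle and pericyte sum and the adipocyte sum given above were higher. The part of these lists in the Igfbp2 values was not tested.

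Igfbp2 and Igfbp5 are neighbours on chromosome 1, so their opposite culture folds concern adjacent genes. In mm10 Igfbp2 runs from 72824503 to 72852474 on the plus strand and Igfbp5 from 72857932 to 72874884 on the minus strand, tail to tail with 5457 bp between them. RefSeq promoters on GRCm38.p6, reaching from 250 bases before the start of a gene to 50 after it, were found for 8 of the 9 genes. They were searched on both strands for the TATA box (TATAAA), in 13.6% of 32851 promoters, the GC box (GGGCGG), in 35.7%, the core of insulin response elements (CAAAACA), in 6.28%, the core bound by FOXO factors (GTAAACA), in 3.65%, and the core bound by AP-2 (GCCNNNGGC), in 16.6%. The 220 bases that end 30 bases before the start are shown for Igfbp5, at chr1:72874896-72875115 on the minus strand, and for Igfbp2, at chr1:72824230-72824449 on the plus strand, because these neighbours moved in opposite directions; capitals mark every match.
Igfbp5: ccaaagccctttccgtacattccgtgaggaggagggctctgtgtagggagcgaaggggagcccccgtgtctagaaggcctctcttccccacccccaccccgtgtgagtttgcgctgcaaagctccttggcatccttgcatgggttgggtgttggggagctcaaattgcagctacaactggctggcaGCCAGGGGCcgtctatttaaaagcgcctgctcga
Igfbp2: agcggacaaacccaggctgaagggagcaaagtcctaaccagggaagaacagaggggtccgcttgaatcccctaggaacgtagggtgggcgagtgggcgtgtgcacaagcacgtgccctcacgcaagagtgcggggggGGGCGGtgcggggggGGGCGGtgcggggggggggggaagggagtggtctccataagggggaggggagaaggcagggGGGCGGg
The Igfbp5 window held 1 AP-2 core, beginning 64 bases before the start, and the Igfbp2 window held 3 GC boxes, beginning 113, 98 and 37 bases before the start. A further RefSeq promoter of Igfbp2, not shown, held no match. Among the other promoters, a TATA box began 28 bases before the start of Igfbp4, GC boxes lay in those of Igf1r and Igfbp7, and a TATA box on the minus strand lay in that of Igfbp6. These letter matches describe the windows and were not tied to the counts.

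Igfbp3, the main carrier of IGFs in serum, was called higher after culture in both genotypes. It had 761 and 406 counts in mutant and wild type libraries after culture, and 737 and 346 before culture, which gives 228 CPM (212 to 244) and 295 CPM (267 to 326) against 80.0 CPM (74.3 to 86.0) and 69.4 CPM (62.3 to 77.2). The cultured libraries did not overlap the others. Igfbp3 rose 2.84-fold (2.57 to 3.15) in mutant cells and 4.25-fold (3.68 to 4.92) in wild type cells. The mutant call was lost when scaled to total gene counts, at a log2 fold of 1.06, and both were lost relative to the pan-endothelial sum, at 0.11 and 0.47.

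Igfbp4, a binding protein that mostly inhibits IGF action, had the highest level before culture and was higher still after it. It had 5644 and 2532 counts in mutant and wild type libraries after culture, and 7973 and 3545 before culture. The levels were 1688 CPM (1644 to 1732) and 1842 CPM (1771 to 1915) after culture, and 865 CPM (846 to 885) and 711 CPM (688 to 735) before it. The culture fold was 1.95 (1.89 to 2.02) in mutant cells, short of the call. Igfbp4 rose 2.59-fold (2.46 to 2.73) in wild type cells, but this was not called with total gene counts, at a log2 fold of 0.75, and turned to -0.25 relative to the pan-endothelial sum, where the mutant value was -0.43.

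Igfbp7, a secreted protein of vessel walls, was called higher after culture in both genotypes. It had 291 and 169 counts in mutant and wild type libraries after culture, and 149 and 122 before culture, which gives 87.0 CPM (77.3 to 97.6) and 123 CPM (105 to 143) against 16.2 CPM (13.7 to 19.0) and 24.5 CPM (20.3 to 29.2). All 4 intervals stood apart from each other. Igfbp7 rose 5.38-fold (4.40 to 6.60) in mutant cells and 5.02-fold (3.95 to 6.39) in wild type cells, and neither was called relative to the pan-endothelial sum, at log2 folds of 1.03 and 0.71. A stretch of 85 bp, 7.03% of its merged exons, overlaps Polr2b on the opposite strand, and the strand setting of the counting is not given in the sources used here.

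Igfbp6, which prefers IGF2 to IGF1, had few counts after culture. It had 9 and 4 counts in mutant and wild type libraries after culture, and 56 and 46 before culture, of which the receptor gene rate would account for 1.79 and 0.598 counts after culture and 9.28 and 7.39 before. The culture folds of 0.443 (0.193 to 0.902) in mutant cells and 0.315 (0.0824 to 0.863) in wild type cells were below 1 and not called, though both were called lower relative to the pan-endothelial sum, at log2 folds of -2.57 and -3.28.

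**Figure D3:**
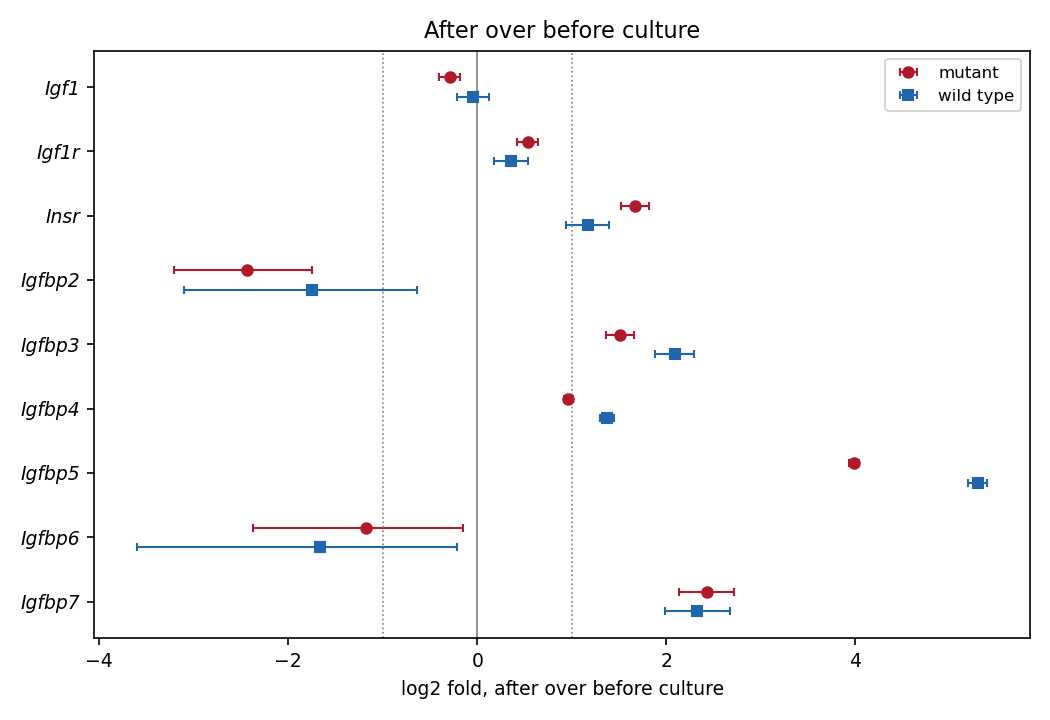
Log2 fold of cells after culture over cells before it, in mutant (circles) and wild type cells (squares), with exact 95% intervals; dotted lines mark 2-fold. Igfbp5 lies farthest right, at 3.99 in mutant and 5.30 in wild type cells, Igfbp2 and Igfbp6 lie left of 0 in both, and Igf1 lies near 0.

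Set against each other within a library, the 6 binding protein genes changed places. Igfbp5 made up 61.8% and 64.6% of their summed CPM per kb in mutant and wild type cells after culture, against 17.5% and 11.5% before culture. Igfbp4 made up 27.4% and 23.8% after culture, against 63.1% and 64.5% before. The sum itself was 1393 and 1749 CPM per kb in mutant and wild type cells after culture, against 310 and 250 before. Igfbp5 over Igfbp4 was 2.25 (2.19 to 2.32) and 2.71 (2.59 to 2.83) after culture, against 0.277 (0.265 to 0.289) and 0.179 (0.166 to 0.192) before. Igfbp4 over Igfbp3 moved less, at 5.26 and 4.42 after culture, against 7.67 and 7.26 before.

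**Figure D4:**
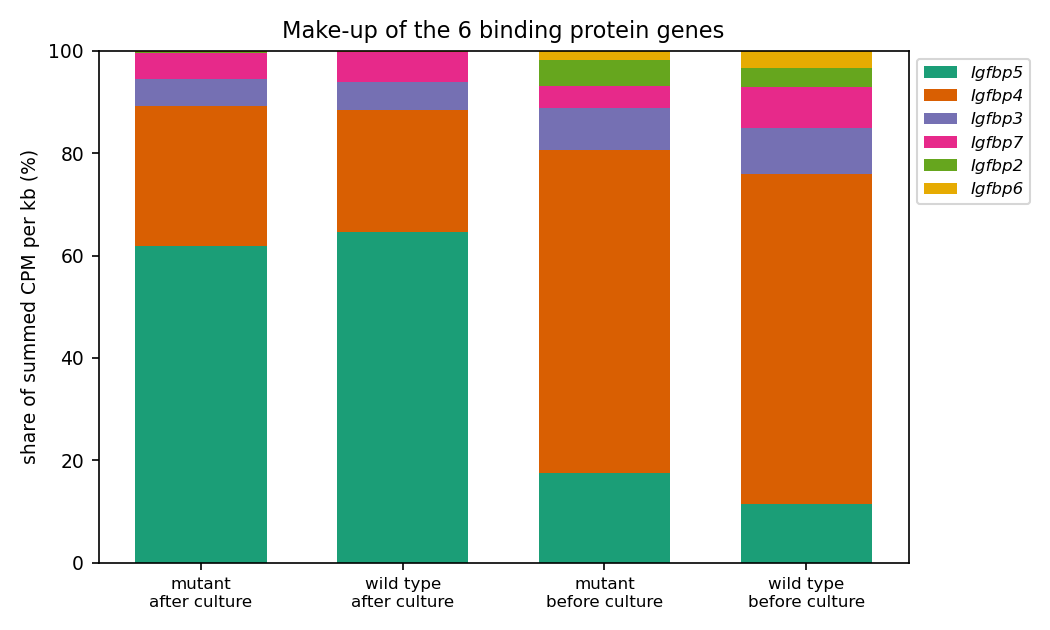
Share of each of the 6 binding protein genes in their summed CPM per kb of exon, as stacked bars for the 4 libraries. Igfbp5 fills 61.8% and 64.6% of the bar in cultured mutant and wild type cells and Igfbp4 fills 63.1% and 64.5% before culture.

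Freshly sorted mutant cells were also set against freshly sorted wild type cells, where the deletion cannot be told apart from differences of litter and sort. None of the 9 genes was called, where 0.0158% of 18934 measured genes were called higher and 0.0475% lower. The largest fold was that of Igfbp5, at 326 CPM in mutant against 173 CPM in wild type cells, 1.88 (1.75 to 2.04), followed by Igfbp2, at 29.1 against 17.1 CPM, 1.71 (1.33 to 2.20). Igfbp4, Igfbp3 and Igf1 had folds of 1.22 (1.17 to 1.27), 1.15 (1.01 to 1.31) and 1.13 (1.06 to 1.20). With total gene counts or the pan-endothelial sum as scale the intervals of Igfbp3 and Igf1 held 1. Igfbp6 and Igfbp7 were lower in mutant cells, at 0.658 (0.438 to 0.995) and 0.661 (0.516 to 0.846), on 56 and 149 counts against 46 and 122. Igf1r stood at 1.03 (0.955 to 1.12), or below 1 with total gene counts or the pan-endothelial sum as scale, and Insr at 0.900 (0.797 to 1.02). Beside these values, the stromal markers summed to 5314 CPM in mutant against 3324 CPM in wild type cells, 1.60-fold (1.57 to 1.63), with none at 0, and the pan-endothelial markers to 1.06-fold (1.04 to 1.08). The 5 cartilage markers summed to 933 CPM in mutant against 605 CPM in wild type cells, again with none at 0. The part of the stromal and cartilage markers in the folds of Igfbp5 and Igfbp2 was not tested.

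After culture the genotypes were compared among cells sorted again for LYVE1 and VECAD. Here too the deletion cannot be told apart from differences of litter and sort, nor from those of the culture. None of the 7 genes with enough counts was called, against 0.244% of 12309 measured genes called higher and 0.0731% lower. Insr had a fold of 1.27 (1.11 to 1.47) and Igf1r of 1.17 (1.03 to 1.32) in mutant over wild type cells. With DESeq2 size factors, which scale these folds by 0.961, the interval of Igf1r held 1. The binding protein genes with enough counts lay below 1: Igfbp7 at 0.708 (0.584 to 0.861), Igfbp5 at 0.762 (0.743 to 0.781), Igfbp3 at 0.770 (0.682 to 0.871) and Igfbp4 at 0.916 (0.874 to 0.961), the last of which turned to 0.01 on the log2 scale relative to the pan-endothelial sum. That sum was itself 0.908 (0.892 to 0.925) of the wild type level. The lymphatic sum was 0.841 (0.822 to 0.861), with log2 folds above 0 for 2 of its 6 measured markers and below 0 for 4. The stromal sum was 0.847 (0.799 to 0.899). The stromal list was split, however, with 4 of its 7 measured markers above 0 and 3 below, and a median log2 fold of 0.022. The 6 adipocyte markers summed to 373 CPM in mutant against 544 CPM in wild type cells, with Adipoq and Car3 called lower in mutant cells and a median log2 fold of -1.71 over the 4 measured, and the part of these marker lists in the folds was not tested. Igf1 stood at 0.948 (0.837 to 1.08), also above 1 relative to the pan-endothelial sum. Igfbp2 and Igfbp6, with 18 and 9 counts in mutant against 7 and 4 in wild type cells, had folds of 1.06 (0.421 to 2.99) and 0.925 (0.258 to 4.11), so that at these counts a difference could not be detected.

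**Figure D5:**
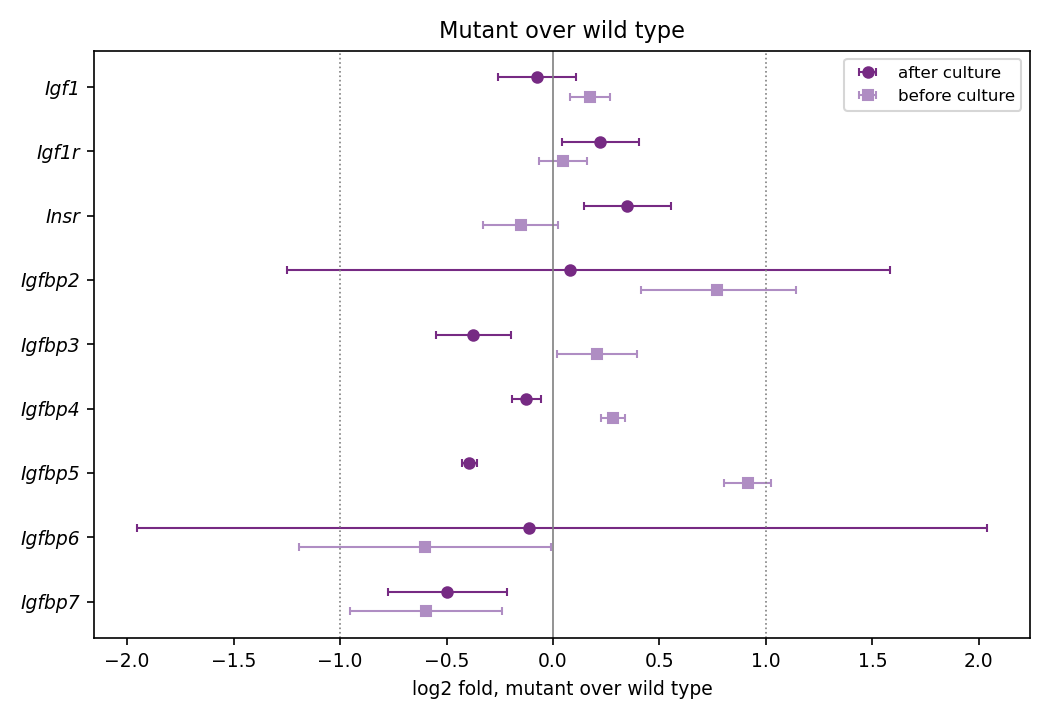
Log2 fold of mutant over wild type cells after culture (circles) and before culture (squares), with exact 95% intervals; dotted lines mark 2-fold. Igfbp5 is at 0.91 before culture and at -0.39 after it, and no interval lies wholly beyond 2-fold.

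The culture fold of each gene in mutant cells was also divided by that in wild type cells. Igfbp5 was the 1 member called, at 0.404 (0.373 to 0.438), where 0.332% of 18949 measured genes were called higher and 0.116% lower. Its culture fold was thus smaller in mutant cells, 15.9 against 39.3, with the mutant level higher before culture and lower after it. Relative to the pan-endothelial sum the ratio was -1.08 on the log2 scale and not called, since its interval reached -0.97. Igfbp3 and Igfbp4 had ratios of 0.669 (0.559 to 0.800) and 0.753 (0.708 to 0.801), and Igf1 of 0.841 (0.730 to 0.970). With total gene counts or the pan-endothelial sum as scale the interval of Igf1 held 1. Insr had a ratio of 1.41 (1.17 to 1.70), on the other side of 1. The intervals of Igf1r, Igfbp2, Igfbp6 and Igfbp7 held 1.

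Other genes of the pathway, 54 in all, were read from 6 lists, and 52 were measured in mutant cells across culture. Of these, 4 were called higher and 4 lower after culture, and in wild type cells 6 and 4 of 50, beside the 5.19% and 3.62% of all measured genes in mutant and 8.17% and 5.77% in wild type cells given above. With total gene counts as scale 2 were called higher and 9 lower in mutant and 1 and 9 in wild type cells. Relative to the pan-endothelial sum none was called higher in either, and 25 and 21 were called lower. Both scales shift the culture folds of all genes downward alike. The share of all genes called was not computed with them, so these counts are not a result about the pathway. None was called between genotypes, of 52 measured before culture and 40 after. Among receptor adaptors, Irs1, a docking protein of the IGF1 and insulin receptors, rose 2.55-fold (2.20 to 2.96) in mutant cells and 3.04-fold (2.34 to 3.95) in wild type cells, but stood at log2 folds of -0.044 and -0.013 relative to the pan-endothelial sum and was called in neither with total gene counts, at 0.90 and 0.98. Its relative Irs2 fell 4.18-fold (3.11 to 5.74) in mutant cells, on 48 counts after culture against 553 before, and had 28 against 192 counts in wild type cells, where it was not called. Ptpn1, a phosphatase that removes phosphate from both receptors, rose 2.63-fold (2.14 to 3.24) in wild type cells, against a log2 fold of -0.22 relative to the pan-endothelial sum. The 12 adaptors had a median log2 fold of 0.45 in mutant and 0.63 in wild type cells. Grb10, an adaptor that dampens receptor signalling, had the most counts of that list, with 480 and 640 CPM in mutant and wild type cells after culture, against 796 and 697 before.

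Of the PI3K, AKT and FOXO genes downstream, Akt1, a kinase, and Foxo1, a transcription factor held back by AKT, rose in wild type cells, 2.73-fold (2.42 to 3.08) and 2.36-fold (2.08 to 2.66); Foxo1 was not called with background subtracted. Relative to the pan-endothelial sum both turned, to log2 folds of -0.17 and -0.38, and with total gene counts neither was called, at 0.82 and 0.61. None of the 18 was called in mutant cells, where Akt1 stood at 1.83 (1.69 to 1.99). Genes that share an IGFBP-type domain moved both ways: in mutant cells Crim1, a membrane protein, Ctgf and Nov, matricellular proteins, rose 3.64-fold (3.35 to 3.94), 3.32-fold (2.98 to 3.69) and 2.52-fold (2.07 to 3.08), and Htra1, a serine protease, and Esm1, on 8 counts after culture against 95 before, were called lower, Esm1 not with background subtracted. Relative to the pan-endothelial sum Crim1, Ctgf and Nov stood at log2 folds of 0.47, 0.33 and -0.061, with no call, and with total gene counts Nov lost its call. In wild type cells Ctgf rose 4.47-fold (3.84 to 5.21) and Crim1 3.39-fold (3.03 to 3.80), or by log2 folds of 0.54 and 0.14 relative to the pan-endothelial sum, without a call, and Crim1 was not called with total gene counts either. In the same cells Htra1 fell to 3 counts after culture, against 84 before, a fold of 0.129 (0.0262 to 0.392). Kazald1, with 0 counts against 34, was called lower as well. Taking 3 counts for the 0, Kazald1 was 3.13-fold lower and no longer called, with a log2 interval of -3.99 to 0.024 that held 0.

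Of 4 binding protein proteases and their inhibitors, 1 was called lower after culture in each genotype, but not the same gene. Over all measured genes 3.62% were called lower in mutant and 5.77% in wild type cells. Pappa2 fell 3.83-fold (2.77 to 5.44) in mutant cells, and Pappa, which cuts IGFBP4, fell 3.88-fold (2.17 to 7.67) in wild type cells, to 12 counts after culture against 169 before. In mutant cells Pappa had 87 counts after culture against 276 before, a fold of 0.868 (0.674 to 1.11), and in wild type cells Pappa2 at 0.339 (0.203 to 0.536), neither called. Igfbpl1, a further relative, had 2 counts after culture against 73 before in wild type cells, a fold of 0.0993 (0.0118 to 0.372), and was not called with background subtracted; nor were Htra1, Kazald1 and Pappa in wild type cells. The ligand gene Igf2 was at 3138 and 5051 CPM in mutant and wild type cells after culture, a fold of 0.621 (0.603 to 0.640), against 3945 and 3935 CPM before culture, with a fold interval of 0.985 to 1.02. Igf2r, the receptor that clears IGF2, stood at 770 and 741 CPM after culture, against 421 and 351 CPM before, without a call except across wild type culture with DESeq2 size factors.

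Genes most like each member over the 4 libraries were taken among 6082 genes with at least 100 counts in 3 or more libraries, by the root mean square difference of centred log2 CPM. Igfbp5 had no close match: its nearest genes were H2-K1 and Clu, at 0.28 and 0.29. The nearest genes were Cdc20 and Hdac2 for Igf1, Txn1 and Dennd1a for Igf1r, Nmi and Snap23 for Insr, Asns and Apbb2 for Igfbp3, Trim35 for Igfbp4, and Eltd1 and Fst for Igfbp7, at differences of 0.00499 to 0.12. With 4 points per gene such likeness is a description of these libraries. Igfbp2 and Igfbp6 had too few counts for this search.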

How the data were processed

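Per the labels' protocols, RNA of 4 libraries, 1 per group, was made into stranded paired libraries of 75 nt reads. The authors deposited raw counts of read pairs, 1 table of gene symbols per library. They list bcl2fastq, STAR, HTSeq 0.11.2 and mm10 in the submitters' processing notes, and name duplicate removal with sambamba in the file names. Which annotation and strand setting were used is not given in the sources used here. The 5 HTSeq summary classes were left out. The class of read pairs without a feature held 11361540 and 3407905 in mutant and wild type libraries after culture, and 48434844 and 33416143 before. Total gene counts were 3931557 and 1694669 in mutant and wild type libraries after culture, and 7943587 and 3987150 before.

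Counts were scaled with TMM (edgeR 4.0.16, R 4.3.3) over all genes. Exon lengths came from GENCODE vM21 on GRCm38, the assembly of mm10, for 22857 symbols (97.9%). Fold intervals are exact conditional 95% (Clopper-Pearson) intervals, and ratios of culture folds use the exact conditional interval of the odds ratio, scaled by library size (scipy 1.17.1 and R). The procedure was run on simulated counts that held counting error only, so variation between litters, sorts and libraries was not covered. Background subtraction used 1429 receptor genes and log-normal intervals. Scaling with DESeq2 1.42.0 size factors, total counts and summed pan-endothelial markers, no count filter, and 3 counts in place of 0 were tried. Duplicate removal can lower the counts of abundant genes such as Igfbp5, since read pairs with equal positions are merged.

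Members, lists and rules were chosen with earlier results of these data known. All members were named in each comparison; of each pathway list, up to 4 called genes with the most counts, or 2 if none was called; Esm1, Irs2 in wild type cells and Igf2 per kb were added. For each member with enough counts, 2 nearest genes were taken. Values of some genes that these rules select are not reported here.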

Additional observations from a re-analysis of the deposited data

Results flagged for a closer look

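The mutant to wild type fold lay on opposite sides of 1 before and after culture, with both intervals clear of 1, for 3 binding protein genes. Igfbp3 stood at 0.770 after culture and at 1.15 before it, Igfbp4 at 0.916 and 1.22, and Igfbp5 at 0.762 and 1.88. With 1 library per group the difference was not tested against replicate error; the ratios of culture folds given above cover counting error only. Relative to the pan-endothelial sum Igfbp4 was no longer below 1 after culture. Before culture the interval of Igfbp3 also held 1 with total gene counts, with the pan-endothelial sum and with background subtracted, where it reached 0.963.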

How the results depend on the processing

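Cultured and freshly sorted libraries of a genotype come from 1 sort, so each culture fold is within such a pair; a joint fit over both pairs, without an interaction, was not run. Leaving out a library would leave a group empty. Of 45 folds of the 9 genes (9 genes in 5 comparisons), no call changed without the count filter or with 3 counts in place of 0, since no member was at 0. With DESeq2 size factors and with background subtracted 1 call changed each, that of Insr across wild type culture; Igf1 across wild type culture also passed to the other side of 0 with DESeq2 size factors. Total gene counts shifted culture log2 folds by -0.45 in mutant and -0.62 in wild type cells and genotype log2 folds before culture by -0.11; 3 calls and 2 directions changed, both directions those of Igf1r, and 1 gene, Igfbp2, was then called lower in wild type culture in place of 0. Summed pan-endothelial markers changed 13 calls and 9 directions. With them 1 gene was called higher and 3 lower in mutant culture, in place of 4 and 1, and 1 higher and 4 lower in wild type culture, in place of 4 and 0; the number whose culture folds differed was 0 in place of 1. Igfbp4 in wild type culture reversed, at a log2 fold of -0.25, as did the pathway genes Irs1 (-0.013), Ptpn1 (-0.22), Akt1 (-0.17) and Foxo1 (-0.38) in wild type culture and Irs1 (-0.044) and Nov (-0.061) in mutant culture. That scale assumes that endothelial genes did not change, and the cause of the differences was not tested. The share of all genes called was not computed with that scale or with total gene counts. Depth limits Igfbp2 and Igfbp6 after culture, where 3 counts amount to 0.897 CPM in mutant and 2.18 CPM in wild type cells. All 9 genes stayed above the receptor gene rate with the longest transcript as length.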
